A study of Mus musculus with 9 samples.

Results

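The genes described here regulate the actin thin filament. They are the tropomyosin genes Tpm1, Tpm2, Tpm3 and Tpm4, the tropomodulin genes Tmod1, Tmod3 and Tmod4 and the leiomodin genes Lmod1, Lmod2 and Lmod3, and they were chosen by symbol and matched to the Ensembl identifiers of the count files. These 10 genes were found in all 9 libraries, among 46078 genes listed for cultured cells and 38293 listed for muscle tissue. The question was at what level they were expressed in muscle precursor cells, in the myotubes formed from them and in muscle, and whether lactate given to the precursor cells changed them.

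All samples came from C57BL/6 mice and were read by RNA sequencing. MB, primary myoblasts grown in growth medium with horse serum, fetal bovine serum and basic FGF, were given PBS as a control (2 replicates) or sodium-L-lactate at 10 mM (2 replicates). MT (2 replicates), also labelled as controls, were primary myotubes obtained from MB after 3 days in differentiation medium. GAS (3 replicates) was whole gastrocnemius muscle of female mice aged 8 to 12 weeks, which holds blood, vessels, nerves and connective tissue beside muscle fibers. No sample carried a transgene or a deletion according to the labels. The labels number biological replicates without saying whether cultures came from separate animals, so the p-values below measure only the spread between these samples.

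In striated muscle, actin, troponin and tropomyosin form thin filaments of uniform length. Tropomyosin is a coiled coil that lies along the filament and, with troponin, controls the access of myosin to actin. Tropomyosin genes such as Tpm1 and Tpm3 encode muscle and nonmuscle isoforms through alternative promoters and exons, and the nonmuscle isoforms bind the actin filaments of the cytoskeleton. Tropomodulins cap the pointed end of the filament, where actin subunits leave and join slowly. Leiomodins are related to tropomodulins, but bind actin so as to start filaments and let them grow at that end. Loss of Lmod3 function is known to cause nemaline myopathy, and Tpm2 and Tpm3 are also genes of that disease.

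The counts per library were between 19307793 and 19941574 for GAS and between 5198247 and 10839516 for cultured cells, so that 3 counts stood for at most 0.155 CPM (counts scaled by library size, here before TMM scaling) in GAS and for 0.277 to 0.577 CPM in cultured cells. This limit covers counting error only. MT replicate 1 stood apart from the other cultured libraries, with a count for 28599 genes against 15548 to 17965. Markers of differentiated muscle (Myog, Ckm, Myh3, Acta1 and Mymk) summed to 9689 and 11720 CPM in the MT libraries and to 194 and 89.4 CPM in the MB libraries, and myoblast markers (Pax7, Myf5 and Myod1) to 161 and 387 CPM in MT and 1236 and 757 CPM in MB, as the labels imply.

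The genes lie on 6 chromosomes of the mouse assembly mm10 (GRCm38). Tpm1 was at chr9:67022590-67049406 on the minus strand, Tpm2 at chr4:43514711-43523765 (minus), Tpm3 at chr3:90072649-90100902 (plus) and Tpm4 at chr8:72134975-72153142 (plus). Tmod1 was at chr4:46038935-46116032 (plus), Tmod3 at chr9:75497707-75559657 (minus) and Tmod4 at chr3:95124476-95129209 (plus). Lmod1 was at chr1:135324807-135368065 (plus), Lmod2 at chr6:24597762-24605414 (plus) and Lmod3 at chr6:97238534-97252759 (minus). The annotation gives 21 transcripts for Tpm1, 16 for Tpm3, 6 for Tpm2 and 2 for Tpm4, but 1 for each leiomodin gene, and the deposited counts sum over them, so that muscle and nonmuscle isoforms of a tropomyosin gene were not separated.

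Promoter sequences of the RefSeq annotation (GRCm38.p6) were found for 8 of the 10 genes, all but Tmod3 and Lmod3. The untranscribed stretches before Lmod1, Lmod2 and Tmod4 are shown because these genes had few or no counts in MB and were transcribed in MT, in GAS or in both. They lie at chr1:135324563-135324806, chr6:24597521-24597761 and chr3:95124264-95124475, all on the plus strand, and are written 5′ to 3′ with E-boxes (CANNTG, the core bound by myogenic bHLH factors) and MCAT elements (CATTCC or GGAATG, bound by TEAD factors) in capitals.
Lmod1: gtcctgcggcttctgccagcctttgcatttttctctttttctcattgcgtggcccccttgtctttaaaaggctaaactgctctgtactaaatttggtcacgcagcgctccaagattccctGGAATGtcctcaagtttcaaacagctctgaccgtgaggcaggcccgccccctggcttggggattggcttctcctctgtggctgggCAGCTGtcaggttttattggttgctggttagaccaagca
Lmod2: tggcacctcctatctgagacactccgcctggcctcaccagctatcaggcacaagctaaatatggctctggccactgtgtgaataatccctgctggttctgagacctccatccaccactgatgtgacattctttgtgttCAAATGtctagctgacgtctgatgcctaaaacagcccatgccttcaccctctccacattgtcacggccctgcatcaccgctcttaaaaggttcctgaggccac
Tmod4: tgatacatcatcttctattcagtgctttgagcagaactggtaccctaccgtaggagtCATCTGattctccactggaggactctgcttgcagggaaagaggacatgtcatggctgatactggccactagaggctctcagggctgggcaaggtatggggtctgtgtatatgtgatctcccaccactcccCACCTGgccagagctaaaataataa
Both strands were searched over 250 bases before each RefSeq start, and no matches overlapped in these stretches. Lmod1 held an E-box 45 bases and an MCAT element 130 bases before its start, Lmod2 held 1 E-box and Tmod4 held 2. An MCAT element was also present for Tmod1, 163 bases before its start, and for Tpm1, 56 bases before it. Tpm1, Tpm2 and Tpm3 also held an E-box, whereas no match to it was present for Tmod1 and Tpm4. Some RefSeq starts lie within the gene spans given above. The windows of Tmod1 (chr4:46038972-46039221) and Tpm4 and a further one of Tpm3 (chr3:90079271-90079520) were inside these spans. Those of Tpm1 (chr9:67049214-67049463) and Tpm2 were partly inside, and the MCAT element of Tpm1 was in the inner part. Matches inside a span are thus not upstream of the whole gene. An E-box was present in 66.2% of the 32851 RefSeq windows of this length and an MCAT element in 12.6%. A CArG box, the site of SRF, was present in 1.47% and a MEF2 site in 2.92%, and neither had a match in the windows of the 8 genes. A match describes the letters only and does not show binding.

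To see how thin filament regulators changed when MB became MT, both groups were compared with edgeR's quasi-likelihood test over 12921 genes left by its filter against low counts. Of the 10 genes, 9 were kept by this filter and Tmod4 was not. A gene was called changed when its adjusted p was under 0.05 and its log2 fold change exceeded 0.5 in either direction. All leiomodin genes and Tmod1 were higher in MT, 4 of the 9 genes tested, and none was lower. In the background of all genes tested, 11.0% were called higher and 6.86% lower. The median log2 fold change was 1.81 over the 9 genes and 0.07 over all genes. The groups did not overlap for 6 of the 9 genes, all higher in MT, where 32.9% of all genes had higher and 29.2% lower non-overlapping values. As these are bulk samples, more cells of a type and more RNA per cell cannot be told apart.

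**Figure D1:**
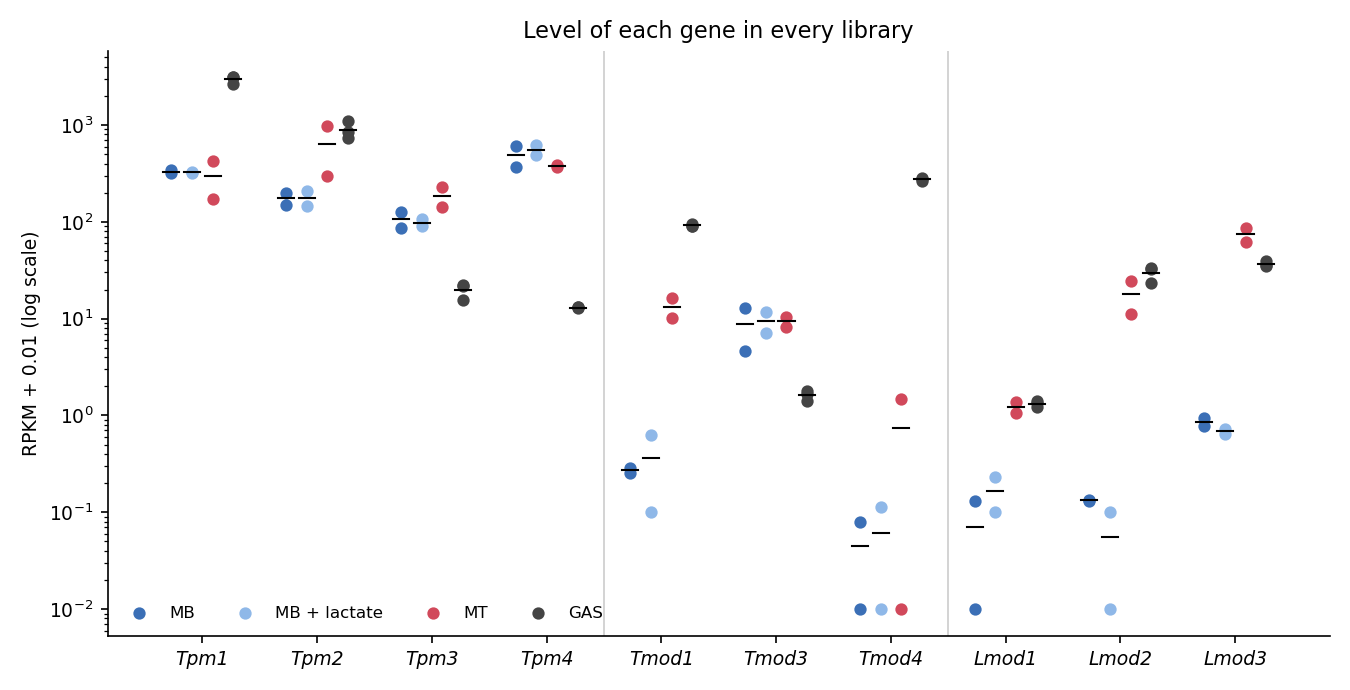
Level of each gene in every library, as RPKM (CPM per kilobase of exonic length) plus 0.01 on a log scale, with points for libraries of MB, lactate-treated MB, MT (2 each) and GAS (3) and a line for the mean of each group. Lmod1, Lmod2, Lmod3 and Tmod1 sit higher in MT than in MB, Tmod4 is high in GAS alone, and Tpm3, Tpm4 and Tmod3 are lower in GAS than in cultured cells, which were prepared with another library protocol.

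Lmod3, the leiomodin of skeletal muscle, had the smallest adjusted p of the 10 genes. MT gave 1832 and 1521 counts of it and MB gave 14 and 17, or 136 and 193 CPM against 1.72 and 2.05 CPM. The MB libraries lay far below both MT libraries. The log2 fold change was 6.44 ± 0.54 (SE), and the adjusted p was 9.5e-05 (edgeR quasi-likelihood test, Benjamini-Hochberg). The ratio of the counts, scaled for library size, was 83.6, with a 95% counting interval of 58.8 to 123.

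Lmod2, the leiomodin best known from the heart and also present in skeletal muscle, had 298 and 383 counts in MT and 2 in each MB library. With so few counts in MB the size of the change was poorly bounded. The ratio of 132 had a counting interval from 51.2 to 484, and the log2 fold change was 7.09 ± 0.78 (SE, adjusted p = 0.000272, edgeR).

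Lmod1, the leiomodin of smooth muscle, was lower than Lmod2 and Lmod3 in both MT libraries per exonic length, with 1.06 and 1.35 RPKM against 11.2 and 24.7 RPKM for Lmod2 and 61.6 and 87.3 RPKM for Lmod3. It had 56 and 42 counts in MT and 0 and 4 in MB, and its log2 fold change was 4.25 ± 1.17 (SE, adjusted p = 0.0307, edgeR). The call rested on both MB libraries, since it was lost without MB replicate 1, where the log2 fold change was 3.22, and without MB replicate 2. Without MB replicate 2, the MB library left had no count of Lmod1. The fitted log2 fold change of 8.50 is thus set against 0 counts and does not measure the size of the change. The call was also lost without the filter on low counts (adjusted p = 0.218, edgeR).

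Tmod1, the capping protein of sarcomeres and of the red cell membrane skeleton, had 40.0 and 64.5 CPM in MT and 1.10 and 0.96 CPM in MB. Its counts were 537 and 507 in MT and 9 and 8 in MB. The MT libraries were again both above the MB libraries, with a log2 fold change of 5.62 ± 0.62 (SE, adjusted p = 0.000272, edgeR). Of its exonic bases, 1287 (32.6%) are shared with Tstd2 on the opposite strand, and how the counting treated strand is not given in the sources used here. Tstd2 had 369 and 214 counts in MT and 333 and 341 in MB.

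Tmod3, the tropomodulin found in most cell types, had 117 and 91.4 CPM in MT and 51.8 and 143 CPM in MB. The MT values lay between those of the MB libraries, and the log2 fold change of 0.14 had a 95% interval from -0.97 to 1.26 (adjusted p = 0.874, edgeR). Tmod4, the tropomodulin of skeletal muscle, had 34 counts in MT replicate 1, none in MT replicate 2, and 0 and 1 in MB. It was thus detected in a single MT library, the one that stood apart by its number of genes. Tmod2, the neuronal tropomodulin and not among the 10 genes, had 5.29 and 3.82 CPM in MT and 2.57 and 6.99 CPM in MB, with overlapping groups.

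No tropomyosin gene was called between MT and MB. Tpm2, whose products include beta-tropomyosin of striated muscle, had 866 and 2837 CPM in MT and 579 and 436 CPM in MB, summed over its transcripts. Both MT libraries were above both MB libraries, but lay far apart from each other. The log2 fold change of 1.81 ± 0.66 (SE, 95% interval 0.35 to 3.28) did not pass the adjustment (adjusted p = 0.084, edgeR), whereas it passed by the DESeq2 Wald test (adjusted p = 0.01) and by edgeR's likelihood ratio test (adjusted p = 0.0161). Without MT replicate 1 it was 2.40 (adjusted p = 0.0659), and without MT replicate 2 it was 0.66 (adjusted p = 0.57).

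Tpm3, which encodes the slow-fiber tropomyosin and several cytoskeletal isoforms, had 875 and 1401 CPM in MT and 770 and 525 CPM in MB. The groups did not overlap, and the log2 fold change of 0.78 had an interval from -0.44 to 2.00 (adjusted p = 0.359, edgeR). The Tpm3-like gene Tpm3-rs7 is 99.1% identical to a Tpm3 transcript over 2108 bases and had 540 and 485 counts in MT and 439 and 324 in MB, so that the split of reads between them is uncertain. Tpm1, which encodes alpha-tropomyosin, had 1110 and 2734 CPM in MT and 2201 and 2090 CPM in MB. Here the MT libraries lay on either side of the MB libraries, with a log2 fold change of -0.19 (95% interval -1.62 to 1.23, adjusted p = 0.868, edgeR). Tpm4, a tropomyosin of the cytoskeleton, had 808 and 847 CPM in MT and 811 and 1342 CPM in MB, and its log2 fold change of -0.36 had an interval from -1.54 to 0.82 (adjusted p = 0.683, edgeR). A stretch of 743 bases of Tpm4 is 96.8% identical to Gm7809, which had 44 and 14 counts in MT and 20 and 57 in MB, and 134 exonic bases (6.1%) overlap the antisense gene Gm26586. Tpm1, Tpm2 and Tpm3 were each lower in MT replicate 1 than in MT replicate 2.

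**Figure D2:**
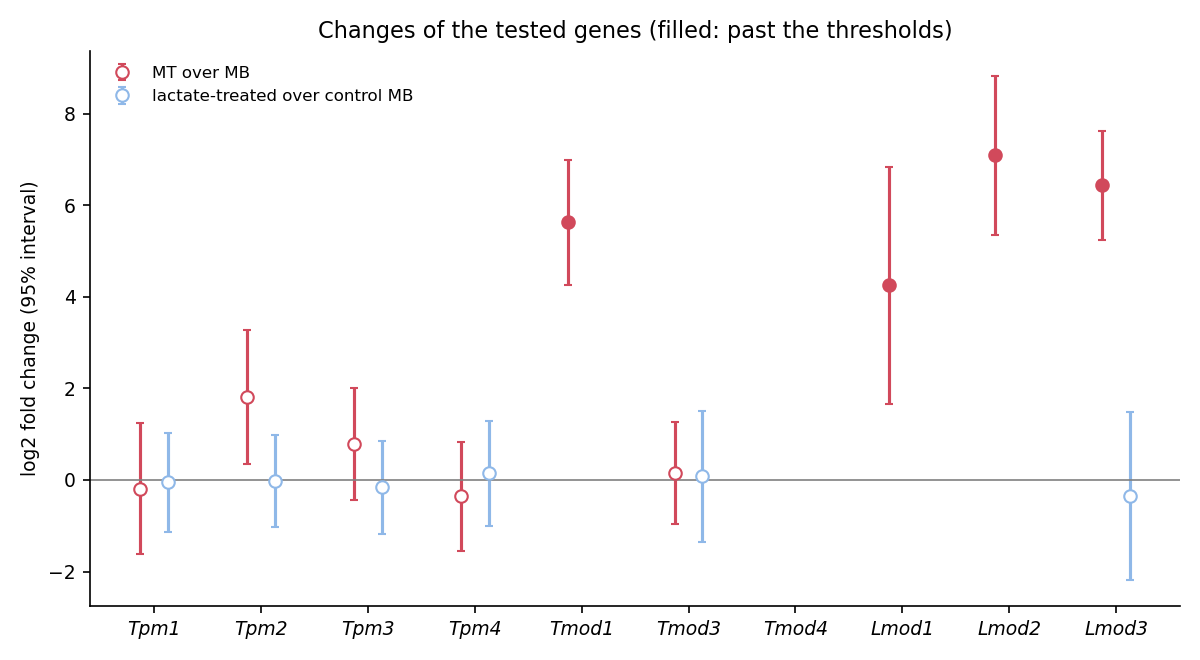
Log2 fold change with its 95% interval for each gene tested, in MT over MB (red, 9 genes) and lactate-treated over control MB (blue, 6 genes), with filled points for calls. The intervals of Tmod1, Lmod1, Lmod2 and Lmod3 begin at 1.66 or higher in MT over MB, and all 6 intervals for lactate include 0.

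Cell type markers differed between MT and MB as well. The fibroblast markers (Pdgfra, Col1a1, Dcn and Lum) summed to 13540 and 1875 CPM in MT and to 2.57 and 2.17 CPM in MB. Of the 3 tested, 2 (Col1a1 and Dcn) were called higher, where 11.0% of all genes were. Col1a1 made up most of the sum in MT, with 13120 and 1762 CPM, and Dcn had 408 and 110 CPM. Pdgfra, not called, had 5.66 and 2.54 CPM in MT, and Lum, not tested, had 6.03 and 0.76 CPM. The smooth muscle markers (Myh11, Smtn, Acta2, Cnn1, Tagln and Actg2) summed to 1648 and 4123 CPM in MT and to 553 and 359 CPM in MB. Of the 4 tested, 3 were called higher, against the same share of 11.0% over all genes. The defining smooth muscle genes Myh11 (2.98 and 0.38 CPM in MT) and Cnn1 (3.20 and 0.89 CPM in MT) were low, and in MB they had at most 1 count per library. Endothelial markers summed to 11.4 CPM in MT replicate 1 and had no count in MT replicate 2. Pericyte markers (Rgs5, Pdgfrb and Cspg4) summed to 118 and 211 CPM in MT and 13.6 and 8.92 CPM in MB. Most of this sum in MT was Pdgfrb, with 105 and 210 CPM. Cspg4 had 2.31 and 0.76 CPM in MT. Rgs5 had 10.4 and 0.13 CPM in MT and 2.70 and 4.22 CPM in MB, with overlapping groups. Macrophage and leukocyte markers summed to 16.8 and 2.93 CPM in MT and 1.72 and 1.09 CPM in MB. Erythroid markers reached 7.60 CPM in MT replicate 1 and at most 1.25 CPM in the other cultured libraries. The part of these cell types in the level of Lmod1 and of the other genes was not tested. Without MT replicate 1, the same 4 genes were called higher, with log2 fold changes of 5.87 for Tmod1, 4.35 for Lmod1, 7.50 for Lmod2 and 6.61 for Lmod3, and the MT replicate kept in that fit still had the fibroblast, smooth muscle and pericyte sums given above.

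Of 14 other genes of the sarcomeric thin filament, all tested, 13 were called higher in MT and none lower, where 11.0% of all genes were called higher, and their median log2 fold change was 6.87 against 0.07 over all genes. Acta1, skeletal muscle actin, had 6752 and 4971 CPM in MT and 54.8 and 29.3 CPM in MB, and Neb (nebulin), which runs along the thin filament, 457 and 835 CPM against 4.17 and 10.1 CPM. Klhl40, which stabilizes Lmod3 and nebulin, had 135 and 170 CPM in MT and 1.23 and 0.96 CPM in MB (log2 fold change 7.09 ± 0.57 SE, adjusted p = 8.72e-05, edgeR). The highest fitted log2 fold change was that of Tnnc2, fast troponin C, which had no count in MB and was at least 135-fold higher in MT when set against 3 counts per MB library (after TMM scaling). The lowest was that of Cfl2, muscle cofilin, with a log2 fold change of 1.27 that was not called (adjusted p = 0.0892, edgeR).

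For the nonmuscle and smooth muscle actin cytoskeleton, 15 of 16 genes were tested. Of these, 4 (Acta2, Actg2, Tagln and Gsn) were called higher and 1 (Tagln2) lower, with a median of 0.24. Over all genes tested, 11.0% were called higher and 6.86% lower, so that the 1 gene called lower was near the share over all genes. Tagln, an actin-binding protein of smooth muscle, had the highest log2 fold change of the list (249 and 484 CPM in MT, 18.1 and 14.9 CPM in MB, log2 fold change 4.44). Actg1, cytoplasmic gamma-actin, had the lowest log2 fold change, with 264 and 801 CPM in MT and 3738 and 1353 CPM in MB (-2.33, adjusted p = 0.0592, edgeR, not called). Capzb, which caps the opposite, barbed end of the filament, had 393 and 473 CPM in MT and 548 and 448 CPM in MB.

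Among SRF, its cofactors and MEF2 partners, 5 of 6 genes were tested and 1 was called higher, where 11.0% of all genes were called higher. Mef2c, a transcription factor of differentiating muscle, had 526 and 898 CPM in MT and 1.35 and 0.96 CPM in MB (log2 fold change 9.23, adjusted p = 8.72e-05, edgeR). Srf itself had 2.16 and 5.21 CPM in MT and 16.2 and 8.92 CPM in MB, a log2 fold change of -1.83 that was not called (adjusted p = 0.0985, edgeR).

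**Figure D3:**
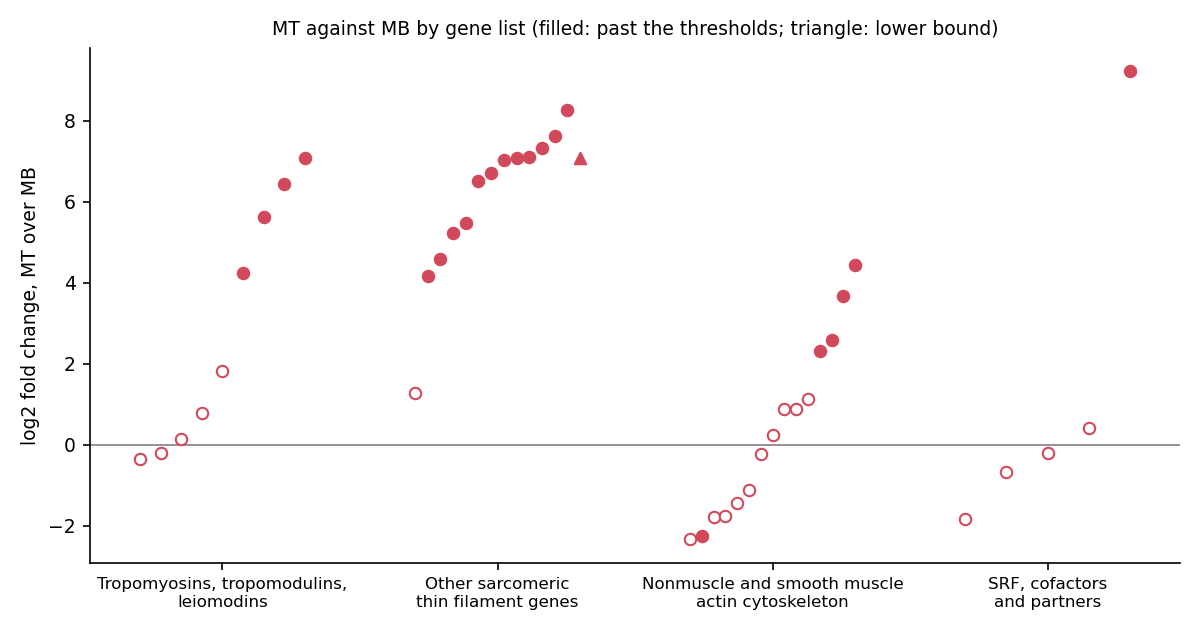
Log2 fold change of MT over MB for each gene tested, by list, with filled symbols for calls and a triangle for the lower bound of Tnnc2. Of the thin filament regulators 4 of 9 are filled, of the other sarcomeric thin filament genes 13 of 14, of the nonmuscle and smooth muscle genes 5 of 15, and of SRF and its partners 1 of 5.

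Over the 6 cultured libraries, the genes whose profile was most like that of Lmod3 were Ip6k3, Cdh11 and Prkag3, with a root mean square difference of 0.16, 0.18 and 0.19 on the log2(CPM + 1) scale centred on each gene. For Tpm4 they were Psmd12, Mapre1 and Psmd14, at 0.05, 0.05 and 0.07. These are descriptions of likeness between profiles over libraries of 3 groups.

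Whether sodium-L-lactate changed these genes in MB was tested in the same way over 11804 genes. Of the 10 genes, 6 passed the filter, and none was called at p under 0.01 with an absolute log2 fold change over 0.5, nor at an adjusted p under 0.05 (edgeR, adjusted p of 1 for all 6). In the background of all genes tested, 0% were called at either threshold, and 5 genes had an unadjusted p under 0.05. That is far fewer than this threshold lets through when no gene changes, so the fit was conservative here. With a term for the replicate number, 166 genes had an unadjusted p under 0.05 (edgeR). The DESeq2 Wald test called none at an adjusted p under 0.05 and gave 3 genes with an unadjusted p under 0.05. This comparison used the same MB libraries as that of MT and MB.

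Tpm1 had 2082 and 2141 CPM in lactate-treated MB and 2201 and 2090 CPM in control MB, and the log2 fold change of -0.06 had a 95% interval from -1.13 to 1.02. Tpm2 had 601 and 427 CPM in treated and 579 and 436 CPM in control MB (log2 fold change -0.02, interval -1.02 to 0.98). In both genes the libraries of one group overlapped those of the other. Tpm3 had 646 and 546 CPM in treated MB (log2 fold change -0.16, interval -1.17 to 0.86), and Tpm4 had 1076 and 1356 CPM (0.15, interval -1.01 to 1.30). Tmod3 had 79.6 and 131 CPM in treated MB, within the range of the controls (0.08, interval -1.35 to 1.51). The upper ends of these 5 intervals lay between 0.86 and 1.51, so that rises of that size could not be resolved in this fit, which has no term for the replicate number.

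Lmod3 had 8 and 9 counts in treated MB against 14 and 17 in control MB, or 1.41 and 1.60 CPM against 1.72 and 2.05 CPM. It was the one gene of the 6 whose groups did not overlap, with lower values under lactate, where 6.84% of all genes had lower and 4.28% higher non-overlapping values. Its log2 fold change of -0.35 had an interval from -2.20 to 1.49. The remaining 4 genes had too few counts to be tested. Tmod1 had 14 and 2 counts in treated MB, Lmod1 had 5 and 2, Lmod2 had 0 and 1, and Tmod4 had 1 and 0, which is far below the 537 and 507 counts of Tmod1 or the 298 and 383 counts of Lmod2 in MT. None of the 10 genes was called for lactate under any of the alternatives tried. In the lists, none of 12 other sarcomeric thin filament genes, 15 nonmuscle and smooth muscle genes and 4 genes of SRF and its partners tested was called (edgeR).

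In GAS, the 10 genes spanned a wide range of levels per exonic length. The tropomyosin genes Tpm1 and Tpm2 led, with 2967 ± 246 RPKM (SD, n = 3) for Tpm1 and 889 ± 192 RPKM for Tpm2. The tropomodulins of muscle came next, with 274.7 ± 9.7 RPKM for Tmod4 and 92.9 ± 2.7 RPKM for Tmod1, and then the leiomodins Lmod3 (36.6 ± 2.3 RPKM) and Lmod2 (29.6 ± 5.5 RPKM). Tpm3 had 20.0 ± 3.7 and Tpm4 13.0 ± 0.15 RPKM. Tmod3 (1.61 ± 0.20 RPKM) and Lmod1 (1.31 ± 0.093 RPKM) were lowest. The replicates of neighbours in this order did not overlap, except for Tmod3 and Lmod1. Acta1 had between 14830 and 16650 RPKM in the same libraries. When the length of the longest transcript was used in place of all exonic bases, the RPKM of Tpm1 was 6658, that of Tpm2 was 1189, of Tmod4 374.4, of Tmod1 116, of Tmod3 4.57, of Tpm4 13.5 and of Tpm3 51.2, which places Tpm3 above Lmod3 and Lmod2.

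Values of GAS stand beside those of cultured cells here without a test, because the library protocols differ (poly(A) RNA for GAS, Smart-seq2 for cultured cells) and because GAS was normalized separately. Tmod4 had 279, 263.6 and 281.5 RPKM in GAS and 1.47 and 0 RPKM in MT. Tmod1 had 96.0, 91.4 and 91.2 RPKM in GAS and 10.1 and 16.3 RPKM in MT. Tpm1 had 3112, 2682 and 3106 RPKM in GAS and 171 and 422 RPKM in MT.

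Lmod3 went the other way, with 34.8, 39.2 and 35.8 RPKM in GAS and 61.6 and 87.3 RPKM in MT. Lmod2 had 23.3, 32.6 and 33.0 RPKM in GAS, close to the upper MT library at 24.7 RPKM. Tpm4 (12.8 to 13.1 RPKM in GAS, 367 and 384 RPKM in MT), Tpm3 (15.7 to 22.3 RPKM in GAS, 144 and 230 RPKM in MT) and Tmod3 (1.39 to 1.76 RPKM in GAS, 8.20 and 10.5 RPKM in MT) were lower in each GAS library than in either MT library. Tpm4 and Tmod3 serve the cytoskeleton of many cells. Tpm3 encodes cytoskeletal isoforms and the slow-fiber tropomyosin, which the counts do not separate. Lmod1 was at a similar level in GAS (1.21 to 1.39 RPKM) and MT (1.06 and 1.35 RPKM), and the smooth muscle markers summed to between 107 and 144 CPM in GAS. Single markers went in different directions. Myh11 had 17.4 to 20.2 CPM in GAS and 2.98 and 0.38 CPM in MT. Acta2 had 18.8 to 27.4 CPM in GAS and 1183 and 3432 CPM in MT. Tagln, Actg2 and Smtn were also lower in each GAS library than in either MT library, and Cnn1 overlapped.

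Within GAS, Tpm2 and Tpm3 had the same order of replicates. Tpm2 had 839, 1101 and 727.5 RPKM in replicates 1, 2 and 3, and Tpm3 had 21.9, 22.3 and 15.7 RPKM. Replicate 2 was thus highest and replicate 3 lowest for both genes. Tpm1 was lowest in replicate 2. The order rests on 3 libraries and was not tested. Erythroid markers, among them the globins, summed to 5213, 2794 and 998 CPM in GAS replicates 1, 2 and 3, and Tmod1, which red cell precursors also express, had 96.0, 91.4 and 91.2 RPKM in them, and the part of blood in its level was not tested.

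The makeup of the tropomyosins was taken as each gene's share of the summed RPKM of Tpm1, Tpm2, Tpm3 and Tpm4 in a library. These shares were more evenly spread in cultured cells than in muscle. In GAS, Tpm1 took 78.1%, 70.3% and 80.4% and Tpm2 took 21.0%, 28.8% and 18.8%, which left less than 1% for Tpm3 and Tpm4 together in each replicate. In MB, Tpm4 took the largest share of the 4 genes, 35.6% and 52.2%, and Tpm1 took 32.9% and 27.6%, an order that turned when the longest transcript was used as length (means of 28.8% and 42.3%). In MT the Tpm2 share was 30.4% and 48.5% against 19.3% and 12.8% in MB, and the Tpm4 share was 37.5% and 19.1%. The summed RPKM was 3819 to 3986 in GAS, 979 and 2011 in MT and 1033 and 1168 in MB. In lactate-treated MB, Tpm2 took 18.4% and 12.4% and Tpm4 took 43.5% and 52.1%. With 2 libraries a group, an exact permutation test of a share cannot go below p = 0.333, and none was made.

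Among the tropomodulin and leiomodin genes, a different gene took the largest share in each kind of sample. In MB it was Tmod3, with 79.8% and 89.7% of their summed RPKM, in MT it was Lmod3, with 64.2% and 63.3%, and in GAS it was Tmod4, with 61.3% to 64.0%. The leiomodins together took 77.0% and 82.2% in MT, 15.4% and 8.16% in MB, 9.83% and 7.07% in lactate-treated MB and 13.6% to 17.0% in GAS. The ratio of Lmod3 to Tmod1 RPKM was 6.08 and 5.34 in MT and between 0.362 and 0.429 in GAS. In MB this ratio was 2.77 and 3.79, from few counts of both genes. The share of Tmod3 in MT, 10.9% and 5.95%, was smaller than in MB, although its level in the 2 groups overlapped. With the longest transcript as length, the Tmod3 share was 25.2% and 14.9% in MT and 91.4% and 95.9% in MB, and the leiomodins together took 62.4% and 72.2% in MT, 6.21% and 3.07% in MB and 3.88% and 2.62% in lactate-treated MB.

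**Figure D4:**
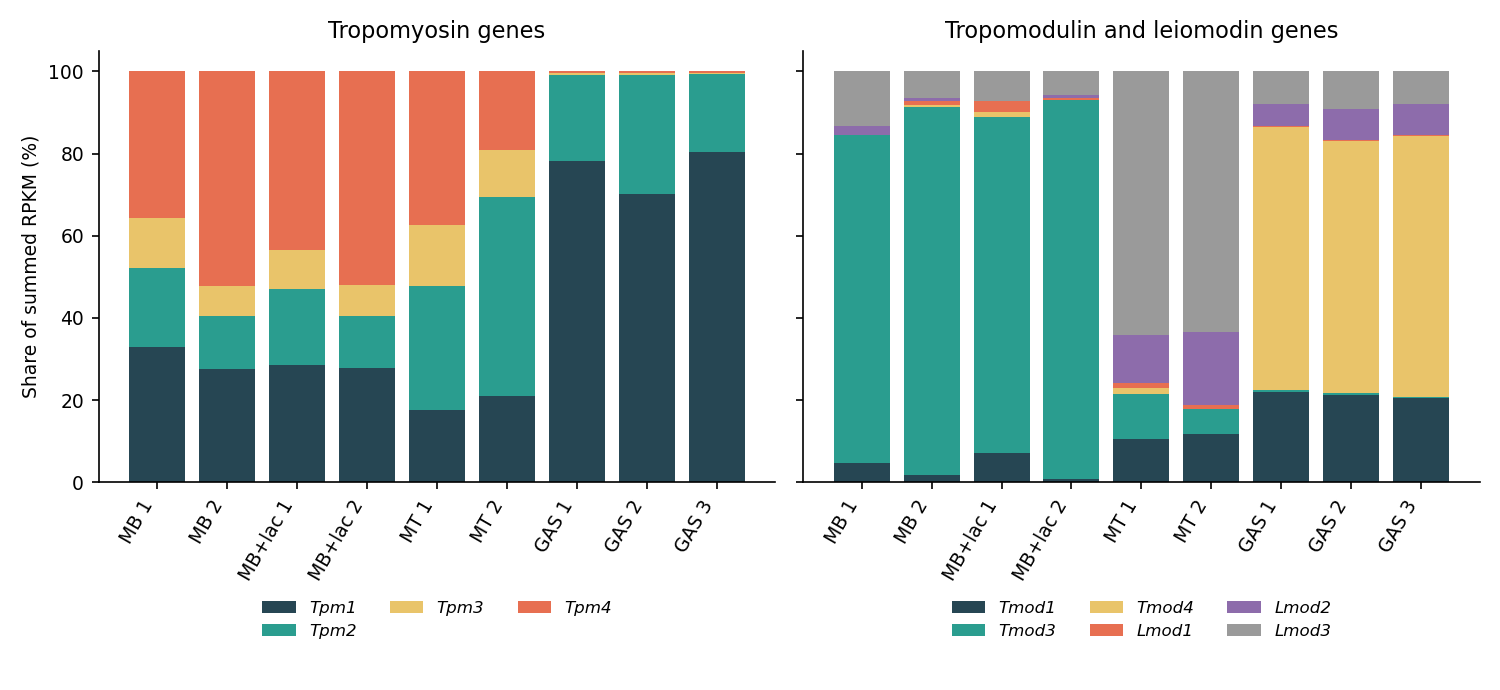
Share in percent of the summed RPKM taken by each tropomyosin gene (left) and by each tropomodulin and leiomodin gene (right), with 1 bar per library of MB, lactate-treated MB, MT and GAS. Tpm1 and Tpm2 fill the GAS bars on the left, and the largest share on the right belongs to Tmod3 in MB, to Lmod3 in MT (64.2% and 63.3%) and to Tmod4 in GAS.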

How the data were processed

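RNA was sequenced from GAS, MT, MB and lactate-treated MB. The authors trimmed the reads (Trim Galore 0.6.6), aligned them to mm10 (HISAT2 2.2.1) and counted them on genes (featureCounts of Subread 2.0.1, with tools and versions per the submitters' processing notes), and deposited them as unnormalized counts for each gene. The annotation release and the handling of strand and of reads with several alignments are not given in the sources used here. Groups were taken from the labels.

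Counts were tested with edgeR 4.0.16 in R 4.3.3, using filterByExpr, TMM factors, a quasi-likelihood F-test and Benjamini-Hochberg adjusted p-values over all genes tested, in a fit of the 4 libraries compared and without a term for replicate number. Thresholds were an adjusted p under 0.05 (for lactate also a p under 0.01) with an absolute log2 fold change over 0.5. The SE of a log2 fold change was its absolute value divided by the square root of the F statistic. The 95% intervals of log2 fold changes were built from this SE, so they restate the test and are no separate check of it. CPM used TMM factors, computed for GAS and cultured cells separately, and RPKM divided CPM by the exonic length in GENCODE, release M21. Ratios of low counts carry exact 95% binomial intervals, which cover counting error only. Near-identical transcripts were sought with blastn 2.17.0 (at least 95% identity over 250 bases). Python 3.11.15, numpy 2.4.6, pandas 2.3.3 and matplotlib 3.10.9 were used besides.

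The genes, lists, markers and tests were chosen with earlier results of these data known. Named are the 10 genes and Tmod2, the tested genes with the highest and lowest log2 fold change of each list, Acta1, Neb, Klhl40 and Capzb, and the 3 nearest profiles to Lmod3 and Tpm4. The other list genes called, single markers and genes sharing sequence were named after their values were seen. Alternatives were RLE size factors, the DESeq2 1.42.0 Wald test, edgeR's likelihood ratio test, other filters, a block, all 6 cultured libraries in one fit, a fit without CT010467.1 and Gm26917, a prior count of 2, the longest transcript as length and leaving out each replicate. Other samples of the study and its chromatin data were not analysed here. One marker list is not reported here.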

Additional observations from a re-analysis of the deposited data

How the results depend on the processing

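Leaving out each replicate in turn gave 3 to 4 of the 10 genes higher in MT, and Lmod1 was the gene lost, without either MB replicate. Requiring at least 10 counts in every library gave 1, Lmod3, because Tmod1, Lmod1 and Lmod2 then were not tested. In that fit 766 of all 10648 genes tested were higher. The DESeq2 Wald test and edgeR's likelihood ratio test gave 5, with Tpm2 added. Of all 12921 genes they called 1729 and 1908 higher, more than the 1425 of the main fit. No filter gave 3, without Lmod1, and called 1382 of 30070 genes higher. RLE size factors, all 6 cultured libraries in one fit, a prior count of 2 and leaving out CT010467.1 and Gm26917 gave the same 4 genes. No gene was called lower in MT and none for lactate under any of these, and no log2 fold change that was called reversed. Over all genes, the number higher in MT was 766 with at least 10 counts in every library and 4118 without MT replicate 2, and the number lower was 1343 by the likelihood ratio test, 270 without MT replicate 1 and 1570 without MB replicate 2. For lactate at p under 0.01, 1 gene passed by DESeq2 and 1 without filter, and 1 to 177 when a replicate was left out, highest without MB replicate 2. In the leave-one-out fits the lone library is assumed to vary like the group of 2.

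Replicate numbers are shared by the groups, but nothing in the labels ties them to an animal or day, and with 2 pairs the numbers were not taken as pairs. Deviations of same-numbered libraries correlated with r = -0.132 for MT and MB and r = 0.705 for lactate-treated and control MB across genes. Levels of treated and control MB correlated at 0.989 for replicate 1 and 0.995 for replicate 2. Between replicates, the values were lower, 0.972 in control and 0.973 in treated MB. The lactate intervals given above come from the fit without a term for the replicate number. With the replicate block 4 of the 10 genes (the same ones) were higher in MT and none was called for lactate, while 13 genes in all passed for lactate at p under 0.01. Crossed replicate numbers, added after the data were seen, also gave 4 higher in MT, with Tpm2 in place of Lmod1, and 0 lower.

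With the longest transcript as length, the mean tropomyosin share of Tpm1 was 84.1% in GAS, 27.2% in MT, 42.3% in MB and 40.8% in lactate-treated MB, that of Tpm2 in GAS 15.1%, that of Tpm3 0.649%, 21.2%, 15.6% and 14.0% in the same order of groups, and that of Tpm4 0.171% in GAS, 28.8% in MB and 31.9% in lactate-treated MB, so that Tpm1 and not Tpm4 then led in MB. Depth limited Tmod4 in cultured cells and Tmod1, Lmod1 and Lmod2 in MB, which had at most 14 counts per library with or without lactate.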
